A study of Homo sapiens with 8 samples.

Results

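The genes described here encode the secreted WNT antagonists DKK1, DKK2, DKK3, SFRP1, SFRP2, SFRP4, FRZB and WIF1 and 2 cell-surface proteins on which Dickkopf antagonists act, KREMEN1 and LRP6. They are 10 of 18417 genes measured on 8 arrays, and each is represented by the probe set that carries its symbol alone. DKK3 had 2 such probe sets, and the brighter was selected on its mean over the 8 arrays. The family was chosen by 1 changed gene: DKK1 was already known to be very low on the arrays labelled temsirolimus 24 h, so its values on those arrays are given as a description, with no test. For the other genes, and for DKK1 in the comparisons without those arrays, tests are reported. The 10 genes and all lists were chosen with earlier results of these data known, so these tests may not be free of that choice.

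The samples were total RNA from the human ovarian carcinoma cell line A2780 and from A2780CP20, a subline known in the field for its resistance to cisplatin. Untreated A2780, untreated A2780CP20, A2780 given temsirolimus for 24 h and A2780 given temsirolimus for 48 h each contributed 2 arrays. Temsirolimus, an ester of rapamycin, blocks mTORC1, a kinase complex that controls cell growth. The medium of all groups was RPMI with fetal bovine serum. The drug was dissolved in DMSO, and neither the dose nor any DMSO given to the untreated cells is stated in the labels. Nothing in the labels says that replicates were separate cultures, so the p-values cover array-to-array spread, which may be technical.

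WNT ligands bind a Frizzled receptor together with a coreceptor, LRP5 or LRP6, and the resulting signal keeps beta-catenin from being degraded so that it can switch on genes with TCF and LEF factors. DKK1 blocks the coreceptor, and KREMEN proteins help DKK1 remove it from the cell surface. The SFRP proteins, FRZB and WIF1 act differently: they bind the WNT ligands themselves. DKK1 is itself a known target of beta-catenin, so it can serve as a feedback inhibitor.

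Promoter sequences are shown for DKK1, whose values differed most between the groups, and for WIF1, which was low on the same arrays. RefSeq (GRCh38.p14) promoters are described for 5 of the 10 genes, DKK1, WIF1, SFRP2, SFRP4 and FRZB. Those of the other genes, SFRP1 among them, were not examined, so nothing is said here about their motifs. The sequences below are the 250 bases before the transcription start, 5′ to 3′ on the strand of the gene, at chr10:52314031-52314280 (plus strand) for DKK1 and chr12:65121306-65121555 (minus strand) for WIF1. Capitals mark CTTTGA, the core of the TCF/LEF motif, and TATAAA, the TATA motif, each searched on both strands; the searched letters of these motifs did not overlap.
DKK1: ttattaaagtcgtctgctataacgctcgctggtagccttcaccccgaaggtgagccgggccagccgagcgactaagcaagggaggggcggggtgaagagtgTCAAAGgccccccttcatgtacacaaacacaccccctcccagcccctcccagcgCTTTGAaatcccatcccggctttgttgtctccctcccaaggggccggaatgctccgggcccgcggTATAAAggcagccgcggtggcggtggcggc
WIF1: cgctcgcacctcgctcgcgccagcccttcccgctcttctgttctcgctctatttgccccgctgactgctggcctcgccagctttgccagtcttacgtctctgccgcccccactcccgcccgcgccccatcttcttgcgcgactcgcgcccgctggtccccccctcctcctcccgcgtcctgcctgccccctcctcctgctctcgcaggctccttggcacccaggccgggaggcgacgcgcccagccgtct

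The DKK1 window held CTTTGA once on each strand, from 95 to 90 bases before the start and, on the opposite strand (read here as TCAAAG), from 149 to 144 bases before it, and TATAAA from 30 to 25 bases before it. No match of either motif was found in the windows of WIF1, SFRP2, SFRP4 and FRZB. Among 35116 RefSeq promoters of the same length, 11.2% held CTTTGA and 10.7% held TATAAA. The window of WIF1 was the richer in CpG, with 27 CpG dinucleotides and 71.6% G and C, against 18 and 62.8% for DKK1 and medians of 11 and 58.0% over all promoters. A match describes letters only; no binding or methylation was measured.

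Values are the deposited log2 levels, which differ between probe sets for technical reasons, so levels are compared only between arrays of the same gene. Array medians lay between 6.66 and 6.72. The 2 arrays labelled 24 h were unlike the rest: over all genes their correlation with the arrays of other groups was 0.950 to 0.952, while arrays of the remaining groups correlated with each other at 0.979 to 0.996 and arrays of the same group at 0.991 to 0.997. Whether these 2 arrays carry the right label could not be settled from the files, so "24 h" below stands for the arrays so labelled. Some markers moved with this difference. Of all genes, 15.3% were called lower at 24 h than in untreated A2780 and 14.9% higher. Of 12 mesenchymal markers, 9 were lower at 24 h than in untreated A2780 and none higher, and their mean level was 7.93 to 7.94 against 9.93 to 9.95 (9.61 to 9.66 in A2780CP20 and 9.94 to 9.95 at 48 h). Of 8 epithelial markers, EPCAM and KRT18 were higher, none was lower and the rest did not pass the test. The mean level of the 8 was 7.09 to 7.14 against 6.38 to 6.40 (6.37 to 6.41 in A2780CP20 and 6.24 to 6.29 at 48 h). Leukocyte markers had 1 of 7 higher, PTPRC at 0.52 ± 0.10 from a level below 5.03, and 1 lower, CD68, and endothelial markers none of 6 in either direction. Of 8 ovarian carcinoma markers none was under 5.03 on all 8 arrays. The same held for the epithelial and the endothelial markers, so that line does not tell these lists apart. None of the ovarian carcinoma markers was higher at 24 h, while 1, SOX17, was lower (7.66 and 7.62 in untreated A2780, 7.20 and 7.35 at 24 h, -0.37 ± 0.12). PAX8 measured 7.06 and 6.78 in untreated A2780 and 6.74 and 6.49 at 24 h. The part of these markers in the results below was not tested.

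DKK1, the LRP5 and LRP6 blocker, was high in 3 groups and near the bottom of the scale on the arrays labelled 24 h. Its levels were 12.16 and 12.31 in untreated A2780, 11.63 and 11.60 in A2780CP20, 4.42 and 4.87 on the arrays labelled 24 h, and 12.46 and 12.44 at 48 h. The 4 groups did not overlap, in the order 48 h, untreated A2780, A2780CP20 and 24 h. The difference of 24 h from untreated A2780 was -7.59 (193-fold lower) and that from A2780CP20 -6.97. Both 24 h values were under 5.03, the lower quartile of the array on which that quartile was lowest. How far such signals exceed background is unknown, so the difference can be understated. In bulk RNA, fewer cells that make a transcript and less transcript per cell cannot be told apart.

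In A2780CP20, DKK1 was lower than in untreated A2780 by a smaller amount, at -0.62 ± 0.14 (difference of log2 means ± limma standard error, n = 2 arrays in each group, 1.54-fold lower, adjusted p = 0.0197). At 48 h it measured 0.22 ± 0.14 against untreated A2780 (adjusted p = 0.630), with a 95% interval from -0.11 to 0.54. Both 48 h arrays were above both untreated arrays, but the difference did not pass the test.

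**Figure D1:**
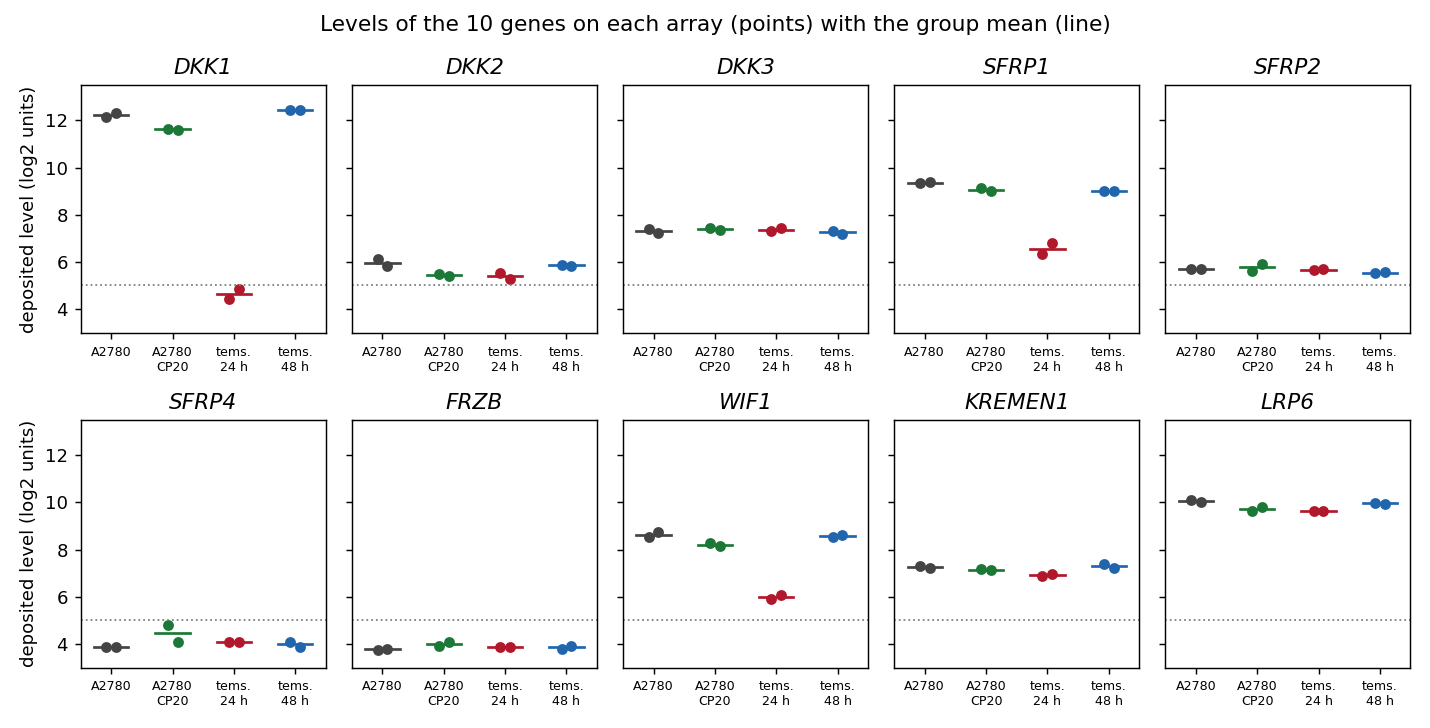
Deposited log2 level (vertical axis) of each of the 10 genes on every array, by group (horizontal axis); points are arrays, short lines are group means of 2 arrays, and the dotted line is at 5.03, the lower quartile of the array where it was lowest. DKK1, SFRP1 and WIF1 drop on the arrays labelled 24 h, with DKK1 at 4.42 and 4.87, while SFRP4 and FRZB stay below the dotted line on every array.

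DKK2, a relative of DKK1 that can inhibit or activate the coreceptor depending on the context, was dim and varied little. It measured 6.13 and 5.82 in untreated A2780, 5.48 and 5.43 in A2780CP20, then 5.56 and 5.29 at 24 h and 5.90 and 5.82 at 48 h. The A2780CP20 and 24 h arrays overlapped each other and lay below all 4 arrays of the other groups. DKK2 fell in A2780CP20 (-0.52 ± 0.13, adjusted p = 0.0282) and at 24 h (-0.55 ± 0.13, adjusted p = 0.0129) against the same 2 untreated arrays. At 48 h it was at -0.12 ± 0.13 (adjusted p = 0.796).

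DKK3, a divergent member of the family, gave no difference that passed the test. Its levels were 7.42 and 7.25 in untreated A2780, 7.46 and 7.38 in A2780CP20, then 7.33 and 7.43 at 24 h and 7.32 and 7.20 at 48 h, and the arrays of every group overlapped those of untreated A2780. The 95% interval at 24 h ran from -0.19 to 0.28. The dimmer DKK3 probe set lay between 5.04 and 5.54 on the 8 arrays, and the arrays of every other group overlapped those of untreated A2780.

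Among the antagonists that bind WNT ligands, SFRP1 and WIF1 fell on the arrays labelled 24 h. SFRP1 measured 9.33 and 9.38 in untreated A2780, 9.12 and 9.00 in A2780CP20, then 6.34 and 6.81 at 24 h and 9.03 and 8.99 at 48 h. The 24 h arrays were thus well below the rest, and the A2780CP20 and 48 h arrays overlapped each other just below untreated A2780. SFRP1 was lower at 24 h by -2.78 ± 0.14 (6.87-fold lower, adjusted p = 1.85e-06) than in untreated A2780 and by -2.49 ± 0.14 (adjusted p = 4.17e-06) than in A2780CP20. Its differences from untreated A2780 were -0.30 ± 0.14 in A2780CP20 (adjusted p = 0.196) and -0.35 ± 0.14 at 48 h (adjusted p = 0.439), and neither passed.

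WIF1 measured 8.55 and 8.73 in untreated A2780, 8.29 and 8.14 in A2780CP20, then 5.91 and 6.06 at 24 h and 8.55 and 8.64 at 48 h. Untreated and 48 h arrays overlapped, A2780CP20 lay below them, and the 24 h arrays lay far below A2780CP20. The change at 24 h was -2.66 ± 0.11 (6.30-fold lower, adjusted p = 4.59e-07) against untreated A2780 and -2.23 ± 0.11 (adjusted p = 1.38e-06) against A2780CP20. WIF1 was also lower in A2780CP20 than in untreated A2780 (-0.43 ± 0.11, 1.34-fold, adjusted p = 0.0296), and at 48 h it was at -0.05 ± 0.11 (adjusted p = 0.913).

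The other ligand-binding antagonists did not change by the test in any of the 5 comparisons. SFRP2 was 5.73 and 5.69 in untreated A2780, 5.64 and 5.91 in A2780CP20, then 5.66 and 5.69 at 24 h and 5.53 and 5.57 at 48 h, with A2780CP20 spanning the untreated and 24 h values. FRZB, also called SFRP3, lay between 3.77 and 4.07 on all 8 arrays, all under 5.03. SFRP4 was as dim, at 3.87 and 3.88 in untreated A2780, 4.09 and 4.10 at 24 h and 4.09 and 3.89 at 48 h. In A2780CP20 its arrays disagreed, at 4.83 and 4.09. Its difference of 0.59 ± 0.20 there (adjusted p = 0.0816) rested on A2780CP20 replicate 1: without A2780CP20 replicate 2 it was 0.96 and passed (adjusted p = 0.00240).

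The cell-surface proteins moved by small amounts. KREMEN1, which encodes a Dickkopf receptor, measured 7.31 and 7.23 in untreated A2780, 7.17 and 7.12 in A2780CP20, then 6.89 and 6.98 at 24 h and 7.38 and 7.22 at 48 h. It fell at 24 h (-0.34 ± 0.10, 1.26-fold, adjusted p = 0.0298). LRP6, the coreceptor that DKK1 binds, measured 10.08 and 10.00 in untreated A2780, 9.64 and 9.80 in A2780CP20, then 9.62 and 9.64 at 24 h and 9.96 and 9.95 at 48 h. LRP6 fell at 24 h (-0.41 ± 0.09, 1.33-fold, adjusted p = 0.0103) and in A2780CP20 (-0.32 ± 0.09, adjusted p = 0.0470). Arrays of the last 2 groups overlapped only with each other, so the lower LRP6 values were those of A2780CP20 and 24 h.

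**Figure D2:**
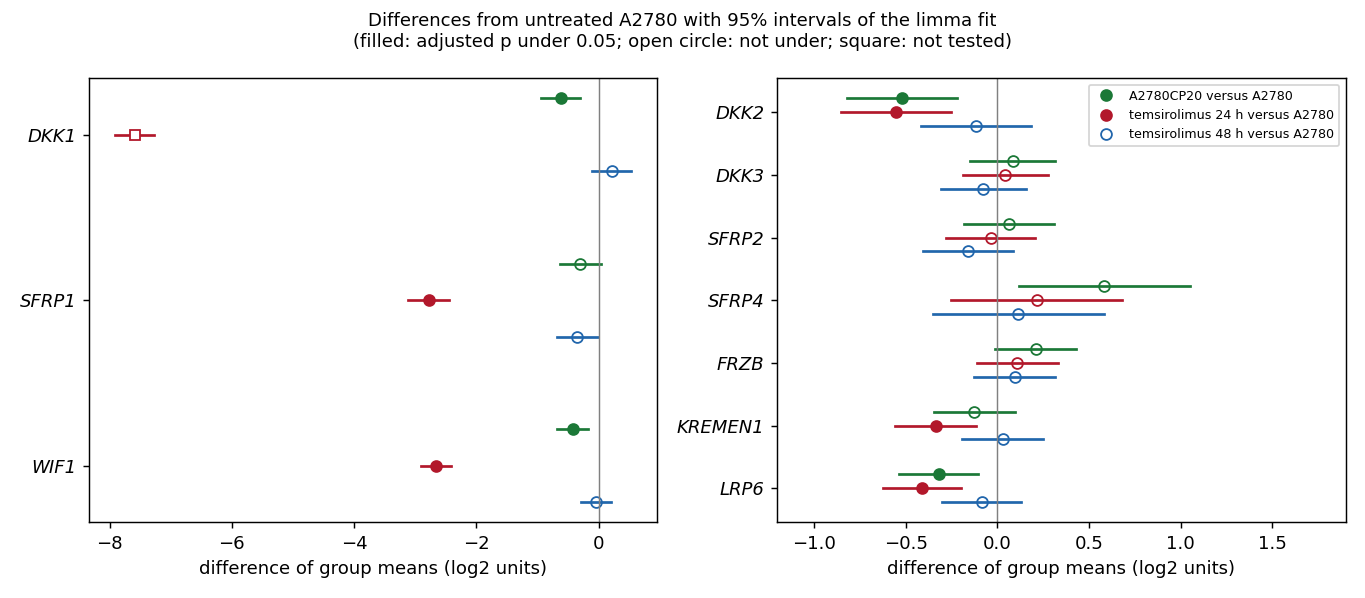
Difference of group means from untreated A2780 (horizontal axis, log2 units) for each of the 10 genes, with the 95% interval of the limma fit as a line; colours are the 3 comparisons, filled circles have an adjusted p under 0.05, open circles do not, and the square was not tested. DKK1 at 24 h stands at -7.59, SFRP1 at -2.78 and WIF1 at -2.66, and the differences of the 7 genes on the right, drawn on a finer scale, lie between -0.55 and 0.59.

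Counted over the family, A2780CP20 against untreated A2780 asks how the subline differs from its parent line. DKK1, DKK2, WIF1 and LRP6 were lower, 4 of 10, and none was higher, with a median difference of -0.21 against 0.03 over all genes. Of all genes tested, 12.0% were called lower and 18.4% in either direction. LRP6 was no longer called when both arrays labelled 24 h were left out of the fit (adjusted p = 0.0854), which left 3 of 10. The count was 1, DKK1, when only the groups compared were fitted. Leaving out untreated A2780 replicate 1 left 0 calls, leaving out its replicate 2 left DKK2, and leaving out replicate 1 of A2780CP20 left WIF1; leaving out replicate 2 of A2780CP20 left DKK1 and LRP6 lower and added SFRP4 as higher.

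The comparison of the arrays labelled 24 h with untreated A2780 is meant for the effect of a day of temsirolimus; since those arrays stand so far apart, its values describe the arrays that carry the label. Of the 9 genes tested, SFRP1, WIF1, DKK2, LRP6 and KREMEN1 fell and none rose, where 15.3% of all genes were called lower and 30.1% in either direction. The median difference of these 9 genes, DKK1 left out, was -0.34, and that of all genes was 0.01. SFRP1 and WIF1 were called in every alternative fit. They were the only ones called, 2 of 9, when untreated A2780 replicate 1 or the 24 h replicate 2 was left out. With DKK2 they made 3 when the 24 h replicate 1 was left out, and KREMEN1 alone lost its call when untreated A2780 replicate 2 was left out.

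Set against A2780CP20, the 24 h arrays were lower in SFRP1 and WIF1 alone, 2 of 9 genes tested, where 15.9% of all genes were called lower and 33.7% in either direction. DKK2 (-0.03 ± 0.13, 95% interval -0.33 to 0.27) and LRP6 (-0.09 ± 0.09, 95% interval -0.30 to 0.12) did not differ detectably. When A2780CP20 replicate 2 was left out, SFRP4 was called lower too, at -0.74 (adjusted p = 0.00212). The comparisons of A2780CP20 and of 24 h with untreated A2780 use the same 2 untreated arrays and share their error.

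At 48 h, none of the 10 genes was called by limma against untreated A2780, and 1, SFRP1, had an unadjusted p under 0.05 (adjusted p = 0.439). Only 0.179% of all genes were called in this comparison. Against the 24 h arrays, which also enter the comparison with untreated A2780, the 48 h arrays were higher in 5 genes. SFRP1 was higher by 2.44 ± 0.14 (adjusted p = 4.48e-06), WIF1 by 2.61 ± 0.11 (adjusted p = 4.73e-07), DKK2 by 0.44 ± 0.13 (adjusted p = 0.0353), KREMEN1 by 0.37 ± 0.10 (adjusted p = 0.0202) and LRP6 by 0.33 ± 0.09 (adjusted p = 0.0289). Of 9 genes tested, 5 were thus higher, where 15.2% of all genes were called higher and 31.0% in either direction. SFRP1 and WIF1 alone were called when the 24 h replicate 2 or the 48 h replicate 1 was left out; leaving out the 24 h replicate 1 kept DKK2 as well, and leaving out the 48 h replicate 2 kept KREMEN1 as well.

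The rest of the WNT pathway was read from 6 lists of other genes, among which some genes stand in more than 1 list. At 24 h most of the other inhibitors did not pass the test. Of 17, 3 fell and none rose, a share near the 15.3% of all genes called lower: SOSTDC1, a secreted inhibitor of WNT and BMP signals (5.40 and 5.35 in untreated A2780, 4.40 and 3.91 at 24 h, -1.22 ± 0.17), CER1 (-0.49 ± 0.14) and DKKL1 (-0.32 ± 0.09). DKK4, the remaining Dickkopf, measured 5.30 and 5.17 in untreated A2780 and 5.35 and 5.54 at 24 h, and SFRP5, the remaining SFRP, 6.61 and 6.68 against 6.81 and 6.73; neither passed the test.

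Genes that raise or carry WNT signals moved in both directions at 24 h. RSPO3, an R-spondin that stabilises Frizzled receptors, was 9.39 and 9.28 in untreated A2780, 8.73 and 8.79 in A2780CP20, then 5.44 and 4.36 at 24 h and 9.18 and 9.30 at 48 h, a change of -4.44 ± 0.28 at 24 h. WLS, which carries WNT ligands to the cell surface, rose from 6.05 and 6.10 to 8.34 and 8.49 (2.34 ± 0.13). They were the only called genes of 6 measured for secretion and R-spondins. Of 19 WNT ligands, 4 rose and none fell, not far from the 14.9% of all genes called higher, and by at most 0.50: WNT8A (0.50 ± 0.15), WNT16 (0.42 ± 0.11), WNT9A (0.35 ± 0.09) and WNT11 (0.32 ± 0.10).

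Of 18 receptors, 7 were called lower at 24 h, 1 was called higher and 10 did not pass, where 15.3% of all genes were called lower and 14.9% higher. FZD8 fell from 9.33 and 9.03 to 7.15 and 6.90 (-2.16 ± 0.15), LGR5, an R-spondin receptor, from 7.08 and 7.27 to 5.15 and 5.01 (-2.10 ± 0.25) and FZD7 from 9.69 and 9.62 to 8.16 and 8.29 (-1.43 ± 0.09). FZD6 went the other way, from 4.75 and 4.72 to 8.03 and 7.47 (3.02 ± 0.17), and its untreated values lay below 5.03. The median of the receptor list was -0.18 against 0.01 over all genes.

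Inside the cell, the beta-catenin machinery had 5 of 21 genes lower and 1 higher at 24 h, beside 15.3% and 14.9% of all genes, led by the corepressor gene TLE1 (-0.89 ± 0.12) and the coactivator gene BCL9 (-0.67 ± 0.15), while DVL1, which relays the Frizzled signal, rose by 0.40 ± 0.11. CTNNB1, which encodes beta-catenin, measured 12.41 and 12.43 in untreated A2780 and 12.21 and 12.29 at 24 h and was not called (adjusted p = 0.184). Of 19 known beta-catenin targets, 4 fell and 2 rose, also beside those shares. TNFRSF19 rose by 4.17 ± 0.11, from 6.47 and 6.40 to 10.56 and 10.64, whereas LGR5 (-2.10), MYC (-1.42 ± 0.13) and CCND1 (-0.80 ± 0.09) fell. AXIN2, a general reporter of beta-catenin activity named here after its values were seen, was 7.02 and 7.06 in untreated A2780 and 6.76 and 6.74 at 24 h (-0.29 ± 0.09, adjusted p = 0.0318).

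**Figure D3:**
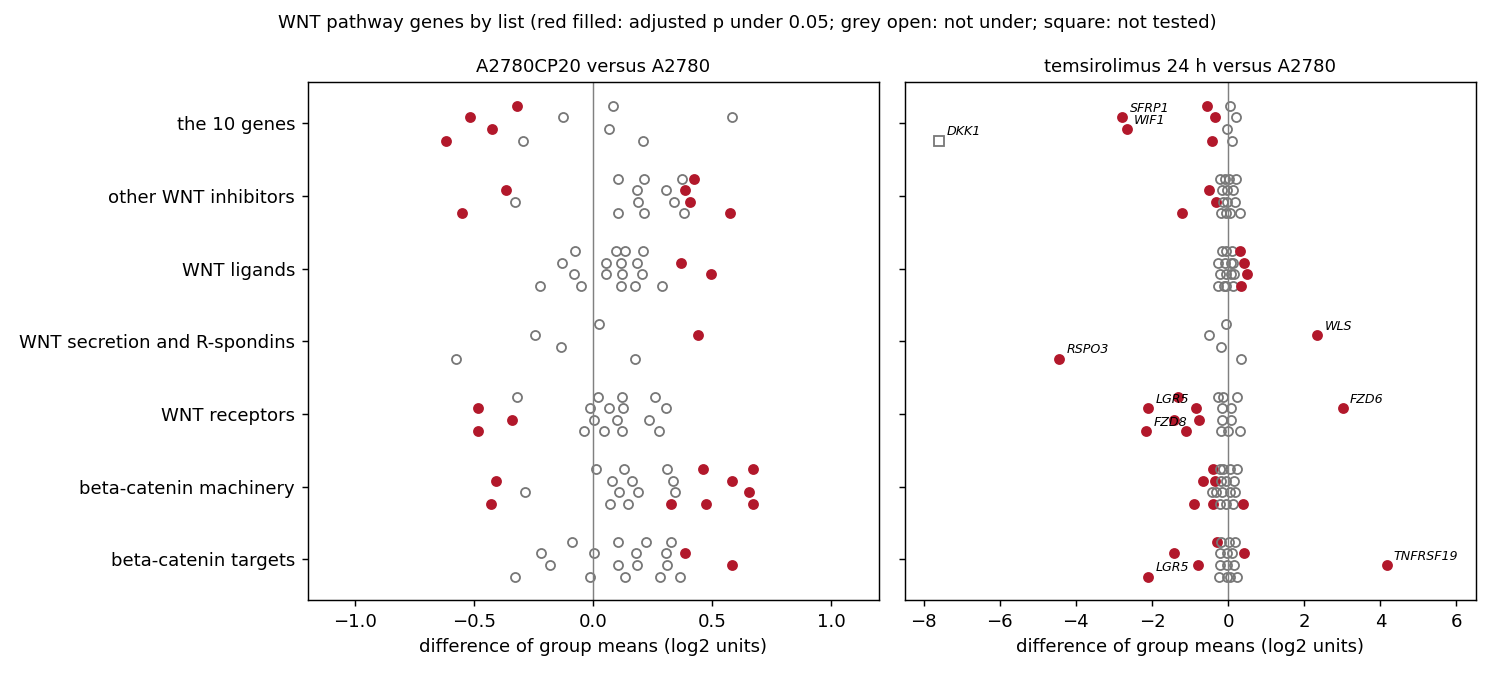
Difference of group means from untreated A2780 (horizontal axis, log2 units) for the 10 genes and the 6 other WNT lists (rows), in A2780CP20 on the left and at 24 h on the right, on different scales; each mark is a gene, red filled marks have an adjusted p under 0.05, grey open marks do not, and the square was not tested. At 24 h the marks far from 0 lie on both sides, from RSPO3 at -4.44 to TNFRSF19 at 4.17, apart from DKK1 at -7.59.

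In A2780CP20, where 6.37% of all genes were called higher and 12.0% lower, the other lists held calls in both directions. Among the 17 other inhibitors 4 were higher, the Frizzled-retaining protein gene SHISA2 (0.58 ± 0.12), SFRP5 (0.43 ± 0.11), NKD2 (0.41 ± 0.11) and NKD1 (0.39 ± 0.09), and 2 were lower, CER1 (-0.55 ± 0.14) and DKKL1 (-0.37 ± 0.09). The beta-catenin machinery had 7 of 21 higher and 2 lower, with DVL1 (0.67 ± 0.11), BCL9L (0.67 ± 0.11), GSK3A (0.66 ± 0.15) and LEF1 (0.59 ± 0.17, below 5.03 in both groups) among the higher and APC (-0.43 ± 0.11) and CTNNB1 (-0.41 ± 0.09) the lower. Receptors had 3 of 18 lower, FZD4, LGR4 and RYK, and none higher, ligands 2 of 19 higher, WNT10B and WNT16, and targets 2 of 19 higher, NKD1 and LEF1. Of 6 genes measured for secretion and R-spondins, 1 was higher, RSPO1 (0.44 ± 0.12, limma adjusted p = 0.0417), and none lower. RSPO3, which was so low at 24 h, was at -0.58 ± 0.28 here and was not called (limma adjusted p = 0.19). No gene of the 6 lists was called at 48 h by limma.

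DKK1 was 1 of many genes set apart by the arrays labelled 24 h. Over the 8 arrays, 224 other genes ranged over at least 3 log2 units, and 62 of them correlated with DKK1 above 0.99 and 55 below -0.99. The most alike were CBLN2 (r = 0.9996), LHX8 (0.9990), the cytochrome P450 gene CYP1B1 (0.9986), TDRD3 (0.9985) and HS3ST3B1 (0.9984), and the most opposite were GUCY1A1 (-0.9989), ARHGAP28 (-0.9979), RAB3IP (-0.9968), CAVIN2 (-0.9967) and NMI (-0.9967). All points of such a correlation share the step between the 24 h arrays and the rest, so r describes these arrays and carries no test. CBLN2 repeated the pattern of DKK1 in every group, with means of 11.64 in untreated A2780, 11.11 in A2780CP20, 6.14 at 24 h and 11.69 at 48 h. SFRP1, the other of the 10 genes with so wide a range, had an r of 0.987 and stood 70th.

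**Figure D4:**
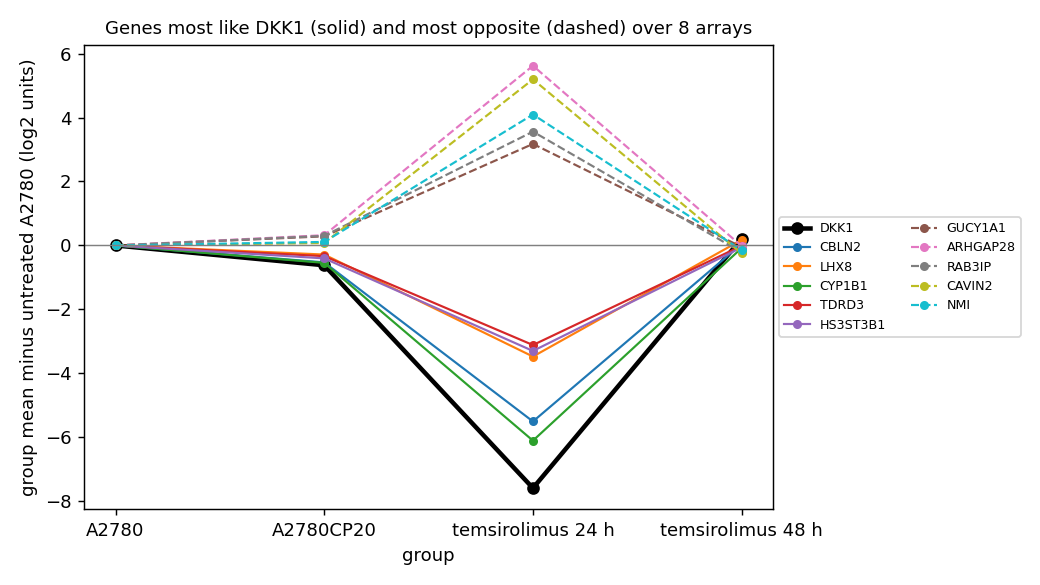
Group mean minus that of untreated A2780 (vertical axis, log2 units) in each group (horizontal axis) for DKK1 in black, the 5 genes most alike as solid lines and the 5 most opposite as dashed lines; each point is a mean of 2 arrays. DKK1 has the deepest drop at 24 h, at -7.59, and all lines return near 0 at 48 h.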

How the data were processed

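Total RNA was hybridised to Affymetrix Human Gene 1.0 ST arrays, 1 per sample. The authors deposited 1 table of log2 values for 33297 probe sets and 8 arrays; the log2 scale was read from their range (1.8 to 14.99). The submitters' processing notes name Partek with no version; background correction, normalization and probe set summary are not stated. The platform annotation gave 19460 probe sets 1 gene symbol, 1754 several and 12083 none; the probe set with the highest mean stood for each of 18417 genes, of which 18389 matched RefSeq GRCh38.p14.

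Groups came from the sample titles. limma 3.58.1 (R 4.3.3) fitted 1 coefficient per group to all 8 arrays and all genes, with empirical Bayes moderation (4 residual and 4.48 prior degrees of freedom); tests were two-sided, p-values were adjusted by Benjamini and Hochberg's method across the 18417 genes, and a call is an adjusted p under 0.05. The number of arrays limits the precision. Marker levels are means of log2 values over a list.

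The 10 genes and all lists were chosen with earlier results of these data known. Genes named from a list were those called, without overlap between groups, up to 4 with the largest change in a comparison; any of the other inhibitors and of the markers could be named, and AXIN2, APC, CTNNB1 and the A2780CP20 value of RSPO3 were added after their values were seen. Members and the genes most and least correlated with DKK1 (5 each, range at least 3) were always named, and not all are. PORCN, TCF7, EPHB2 and CSNK1E had no probe set of their own symbol alone and were not analysed here.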

Additional observations from a re-analysis of the deposited data

Results flagged for a closer look

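In 5 of the 9 genes tested, and in DKK1, the difference from untreated A2780 at 48 h was unlike that at 24 h. Both times are set against the same untreated arrays, so the gap between them equals 48 h minus 24 h. It passed limma's test for WIF1 (2.61), SFRP1 (2.44), DKK2 (0.435), KREMEN1 (0.365) and LRP6 (0.325). Of all genes, 31.0% were called in either direction between 48 h and 24 h. For DKK1 the gap was 7.81 and was not tested: both 24 h arrays lay below both untreated arrays and both 48 h arrays above them. Groups of 2 arrays are too small to look for a stray array.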

How the results depend on the processing

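The count of the 10 genes called in A2780CP20 against untreated A2780 was the least stable: 4 became 2 after quantile normalization and 1 when only the groups compared were fitted, and it ranged from 0 to 3 with 1 array left out. With 1 array left out the 5 calls at 24 h against untreated A2780 became 2 to 4, and the 5 of 48 h against 24 h became 2 to 3. SFRP1 and WIF1 stayed called in all alternatives of these comparisons with the 24 h arrays, and at 48 h against untreated A2780 none of the 10 genes was called in any. Where a gene was not called, the sign could turn. Median centring turned SFRP2 at 24 h against untreated A2780 to 0.015 and DKK2 at 24 h against A2780CP20 to 0.01, and quantile normalization turned FRZB at 48 h against 24 h to 0.075. With 1 array left out, SFRP2 in A2780CP20 ranged from -0.07 to 0.20 and DKK3 at 24 h from -0.04 to 0.13. At 48 h against untreated A2780, DKK2 ranged from -0.27 to 0.04, DKK3 from -0.16 to 0.01, WIF1 from -0.135 to 0.045 and KREMEN1 from -0.05 to 0.11. FRZB at 48 h against 24 h ranged from -0.08 to 0.05. At 24 h against A2780CP20, DKK2 ranged from -0.165 to 0.105, DKK3 from -0.09 to 0.01 and SFRP2 from -0.235 to 0.035. The cause was not tested. Where an array was left out, the lone sample of its group was assumed to vary like the others.

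Over all genes, the 3388 calls in A2780CP20 became 1022 when only the groups compared were fitted and 974 to 5543 with 1 array left out. The 33 calls at 48 h became 68 with a prior that follows intensity and 4 to 6 with 1 array left out, and the 5551 calls at 24 h became 3621 to 3919. Correlations of same-numbered deviations between groups ran from 0.002 to 0.039 in pairs with the 24 h arrays. In the other pairs they ran from 0.117 to 0.181, with 0.160 for A2780CP20 and untreated A2780. They were not over 0.1 in every pair of groups, so the arrays were not treated as paired. With a replicate block, 3, 5 and 0 of the 10 genes were called in A2780CP20, at 24 h and at 48 h. LRP6 in A2780CP20 was the call lost (limma adjusted p = 0.0553). DKK2, SFRP2, SFRP4 and FRZB were not tested when only the 13811 brighter genes were kept.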

Other observations

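The genes beside DKK1, WIF1 and SFRP1 on their chromosomes were read after the values of those 3 genes had been seen, taking the nearest 2 measured protein-coding genes on each side in RefSeq order. Near DKK1 on chromosome 10, PRKG1, a cyclic GMP-dependent protein kinase gene, had group means of 10.3 in untreated A2780, 9.34 in A2780CP20, 5.32 at 24 h and 10.2 at 48 h, so it differed at 24 h by -4.99 (limma adjusted p = 5.43e-08). MBL2, the next gene on the other side, differed by -1.04 (limma adjusted p = 7.84e-05). CSTF2T, next to DKK1 in that order, was at -0.05 and PCDH15 at 0.10, and neither was called.

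Near SFRP1 on chromosome 8, TCIM was at -3.84 (limma adjusted p = 3.11e-07) and ZMAT4 at -0.89 (limma adjusted p = 0.000568), while GOLGA7 (-0.10) and GINS4 (0.28) were not called. Of the genes near WIF1 on chromosome 12, LEMD3 was at -1.18 (limma adjusted p = 3.33e-05), and RASSF3, TBC1D30 and MSRB3 lay between -0.26 and -0.12 and were not called. Of all genes, 15.3% were called lower at 24 h than in untreated A2780 and 30.1% in either direction. No cause was tested for the values of the genes near DKK1, SFRP1 and WIF1.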
